A study of Mus musculus with 43 samples.

Results

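The genes described here are 36 members of the network that keeps mouse embryonic stem cells in the naive pluripotent state. They were the core and naive transcription factors, the leukaemia inhibitory factor (LIF) pathway and the markers of that state, taken by gene symbol from a table of 22462 genes, in which all 36 were found. The cells were E14, a mouse embryonic stem cell line, grown with serum and LIF on gelatin. The labels name no inhibitor added to the medium. RNA sequencing was done on 3 libraries of control cells and 3 libraries of MTF2 knockout cells of the same line, called biological replicates in the series' design. How many clones the knockout came from, and what the control cells carried, was not given in the sources used here. MTF2 is a Polycomb-like subunit of the complex PRC2, which methylates lysine 27 of histone H3, and the series asked how such proteins link that complex to CpG islands. Its ChIP-seq samples, in which wild-type or K339A MTF2 had also been put back, were not analysed here.

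Naive pluripotency is the state of the epiblast of the early blastocyst, which embryonic stem cells hold in culture. POU5F1 and SOX2 bind DNA together and with NANOG form the core of the network. LIF signals through the receptor pair LIFR and IL6ST to the transcription factor STAT3, which feeds into KLF4, TFCP2L1 and other factors that support one another's expression. PRC2 represses developmental regulators in these cells and is known not to be required for their self-renewal.

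Each gene had 1 pooled level per group, as FPKM (fragments per kilobase of transcript, scaled to the number of fragments sequenced). No spread over libraries and no depth of a single library can be had from it. The targeted gene Mtf2 was listed at 74.3 FPKM without and 44.7 FPKM with the knockout, 60.2% of control, which is a weak check of the labels. The core genes Pou5f1, Sox2 and Nanog, all at over 90 FPKM in both groups, were in keeping with the label of embryonic stem cells. Primitive endoderm markers differed between the groups: 14 of 19 tested were called higher and 0 lower. Over all tested genes, 6.9% were called higher and 6.03% lower. Of the 19 markers only Hnf4a stood lower in knockout cells (2.25 and 1.08 FPKM), and it was not called. The summed level of the 21 listed markers was 358 FPKM in the control and 1809 FPKM in the knockout. Sparc alone gave 180 and 788 FPKM of these sums. Ttr and Afp of that list were listed at 0 in control cells. The part of such cells in the results below was not tested, and in bulk RNA fewer cells of a type and less RNA per cell cannot be told apart. Of the 10 fibroblast markers, 4 were tested, with a summed level over the list of 46.6 and 36.3 FPKM. Thbs1 was called higher (0.178 and 1.78 FPKM) and Fbln1 lower (38.9 and 18.5 FPKM). Most of the control sum was Fbln1, and 3 of the 4 tested genes stood higher in knockout cells. Of the 11 trophectoderm markers, 7 were tested, 2 were called higher (Krt8 and Krt18) and 1 lower (Tfap2c), and the summed level was 47.7 and 190 FPKM. The trophectoderm markers Cdx2 (0.573 and 0.798 FPKM), Gata3 (0.906 and 0.999 FPKM) and Elf5 (0.645 FPKM and listed at 0) were low in both groups. Eomes stood higher, at 6.07 and 3.90 FPKM, as did Tfap2a, at 3.87 and 2.83 FPKM, and neither was called. Of 7 neural markers, 3 were tested and 0 called. All 6 markers of the two-cell-like state were listed at 0 in both groups.

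Of the 35 tested genes of the network, 9 were called different between the groups. A difference was called where the authors' deposited Cuffdiff q was at or under 0.05. Of the 35 genes tested, 5 were called higher in knockout cells (Tdh, Spp1, L1td1, Tfcp2l1 and Klf5), 4 lower (Eras, Tcea3, Foxd3 and Utf1) and 26 were not called. That is 25.7% of those tested, beside 12.9% of all 11362 tested genes, with 6.9% of all tested genes called higher and 6.03% lower. Among the 6174 tested genes with a mean level of 10 FPKM or more, 16.3% were called. As the genes were chosen with earlier results known, no test was made of that share. Of the 26 genes not called, 5 had an unadjusted Cuffdiff p under 0.05 and 3 had a q under 0.1. Of the 9 called genes, all but Tdh and Spp1 had a deposited Cuffdiff p smaller than the deposited test statistic gives under a normal distribution. The smallest deposited Cuffdiff p was 5e-05, which Tdh, Spp1, Tfcp2l1 and Tcea3 had, and 472 genes shared its q of 0.0012. With normal p-values, 2 of the 9 calls were kept, those of Tdh and Spp1, and over all tested genes 124 calls were made in place of 1469.

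The size of the differences was close to that of other genes. The log2 ratio used here is that of knockout over control after adding 0.5 FPKM to both. Its median over the 35 tested genes was 0.10, beside -0.0035 over all tested genes and -0.08 over those with a mean of 10 FPKM or more. The absolute ratio was under 0.5 in 20 of 35 genes (57.1%), beside 56.1% of all tested genes and 64.8% of those with a mean of 10 FPKM or more. In all, 19 genes had a ratio above 0 and 16 below 0. The order of the levels was also much alike: across the 35 genes, log2 levels in control and knockout cells had a Pearson r of 0.92, and across the 6174 genes 0.89. Both are descriptions, as the points share the libraries.

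**Figure D1:**
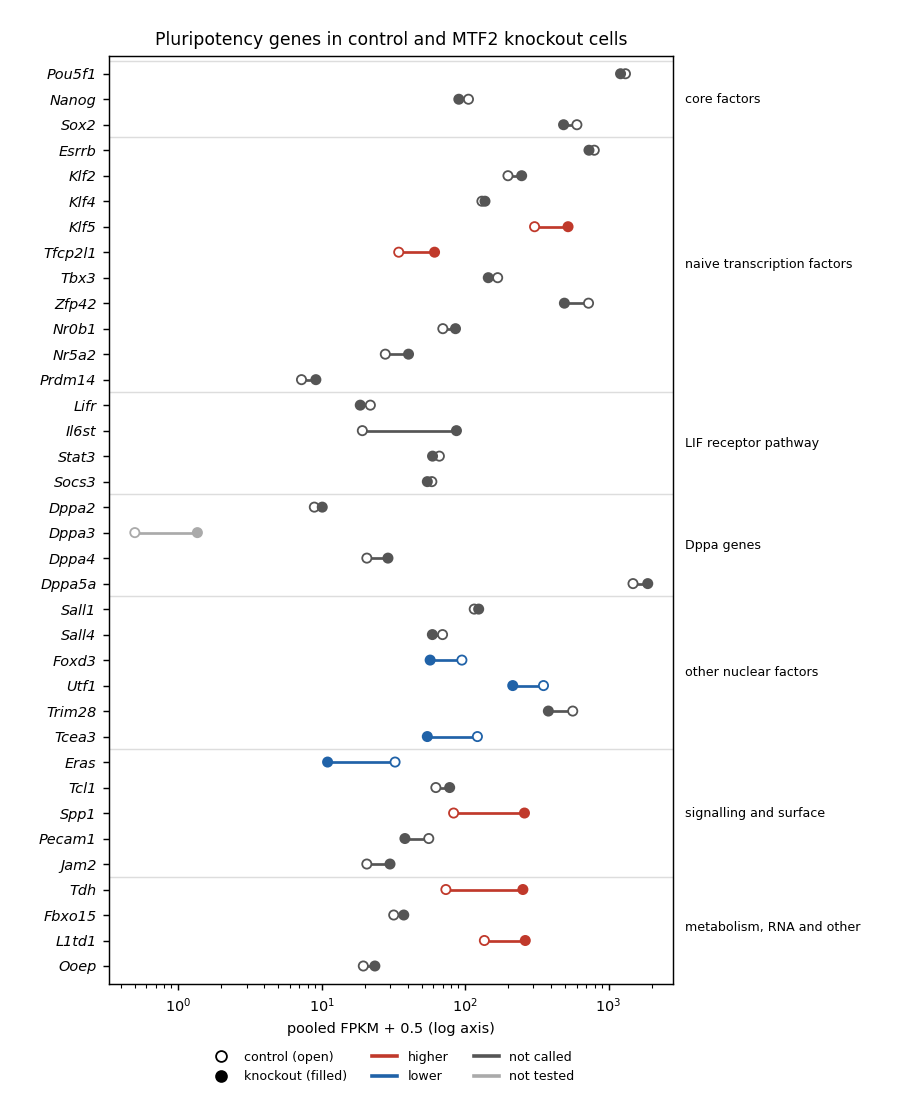
Pooled FPKM plus 0.5, on a log axis, of 36 pluripotency genes grouped by role, with open points for control and filled points for MTF2 knockout cells. Red lines join genes called higher and blue lines genes called lower. The blue genes are Foxd3, Utf1, Tcea3 and Eras, and the points of the 3 core factors nearly touch. Dppa3 was not tested.

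In control cells 33 of the 36 genes had 10 FPKM or more and 15 had 100 FPKM or more, beside 26.7% and 4.61% of all genes in the table. FPKM is scaled to length, so levels of different genes can be set side by side. The 5 highest in control cells were Dppa5a, Pou5f1, Esrrb, Zfp42 and Sox2, in that order. In knockout cells Klf5 entered the fourth place, and Dppa5a, Pou5f1 and Esrrb held the first places. Dppa2, Prdm14 and Dppa3 were the lowest in both groups. The gene next above them was Il6st in control cells and Eras in knockout cells. Whether neighbours in this order differ beyond their spread cannot be said without values per library.

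None of the 3 core factors was called, and none had an unadjusted p under 0.05 in the authors' deposited Cuffdiff table. All 3 pooled levels were lower in knockout cells. Pou5f1, which encodes OCT4 (chromosome 17, 35506018 to 35510772, mm10), had a control level of 1312 FPKM and a knockout level of 1212 FPKM. Sox2, its DNA-binding partner, stood at 602 and 486 FPKM, and Nanog, the homeobox factor that lets cells renew with less LIF, at 105 and 90.03 FPKM. The log2 ratios were -0.11, -0.31 and -0.22, with q of 0.806, 0.403 and 0.543 in the authors' deposited table. The summed level of the core factors in knockout cells was 88.6% of that in control cells, beside 90.3% for the sum over the whole table. Pou5f1 and Nanog have processed pseudogenes in the mouse, and Sox2 lies within the long noncoding gene Sox2ot, so their levels are uncertain where reads could be shared.

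The 10 naive transcription factors gave 2 calls, both higher (beside 6.9% of all tested genes), and 8 passed no threshold. Their median log2 ratio was 0.31. Tfcp2l1, a factor downstream of LIF and STAT3 (chromosome 1, 118627946 to 118685168), went from 34.0 to 60.8 FPKM, a log2 ratio of 0.83 with q = 0.0012 in the authors' deposited table. Klf5, a Krüppel-like zinc finger factor (chromosome 14, 99298691 to 99313405), went from 305 to 522 FPKM, a log2 ratio of 0.78 with q = 0.00454 in the authors' deposited table. Its relatives Klf2 and Klf4, whose loss embryonic stem cells tolerate while another of the group is present, were not called. Klf2 stood at 199 and 248 FPKM and Klf4 at 131 and 137 FPKM in control and knockout cells. All members of the Klf group thus had ratios above 0, and Klf5 alone passed the threshold.

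The nuclear receptors of the network were not called. Esrrb, an orphan receptor that can stand in for NANOG, stood at 795 and 730 FPKM. Nr5a2, a receptor that binds the Pou5f1 gene, stood at 27.3 and 39.9 FPKM, and Nr0b1, a receptor without a DNA-binding domain of the usual kind, at 69.5 and 85.3 FPKM. Their log2 ratios ran from -0.12 for Esrrb to 0.54 for Nr5a2. The T-box factor gene Tbx3 stood at 168 and 145 FPKM and Prdm14, which restrains FGF signalling and DNA methylation, at 6.75 and 8.63 FPKM. Zfp42 (REX1), a zinc finger gene widely used as a naive marker, stood at 725 and 492 FPKM. Its log2 ratio was -0.56, with q = 0.0743 in the authors' deposited table, the lowest ratio of this group.

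**Figure D2:**
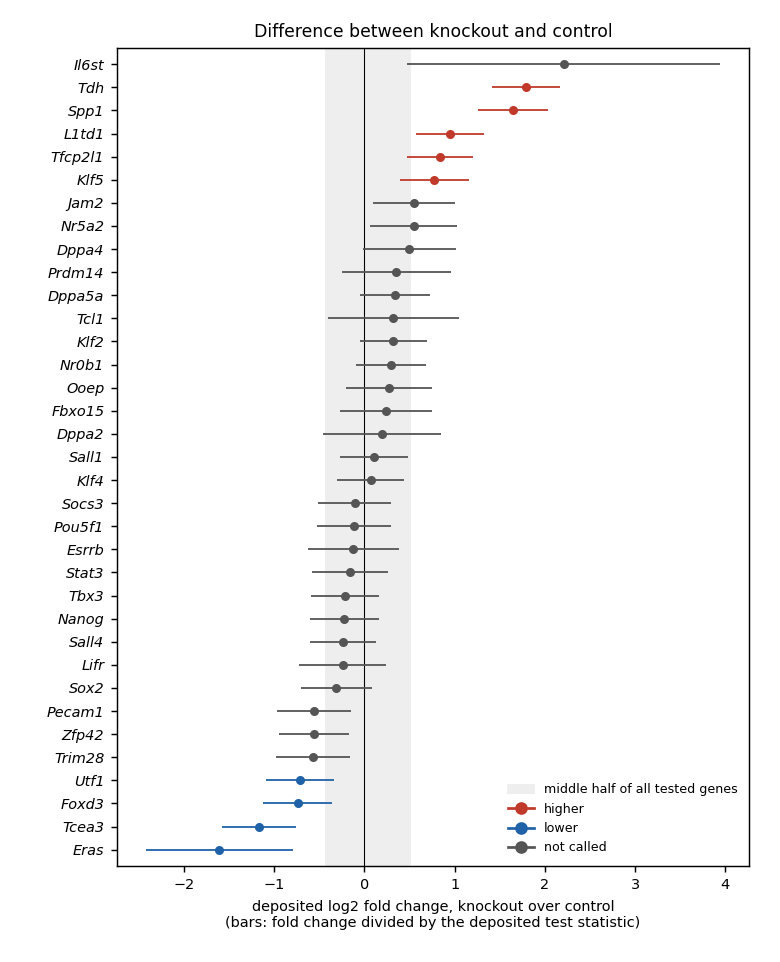
Deposited log2 fold change of knockout over control for the 35 tested pluripotency genes, ordered by size. Bars show the fold change divided by the deposited test statistic, and the grey band holds the middle 50% of all tested genes. Il6st is at the top with the longest bar and was not called, above the 5 genes called higher in red, and the 4 genes called lower are in blue at the bottom.

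None of the 4 LIF pathway genes of the network was called. Il6st, the signalling chain gp130 (chromosome 13, 112464070 to 112510086), had 18.7 FPKM in control cells against 86.6 FPKM after the knockout, 4.62 times the control level. With a log2 ratio of 2.18 it had the largest ratio among the tested genes of the network, and it was not called (q = 0.0746 in the authors' deposited table). Lifr, the chain that binds LIF, stood at 21.4 and 18.1 FPKM, Stat3 at 65.7 and 58.9 FPKM, and the feedback inhibitor gene Socs3 at 58.2 and 54.1 FPKM. Their log2 ratios were -0.23, -0.16 and -0.10, and none was called. Socs3 and the gene Stat3 that activates it were thus near their control level in the pooled values, beside the higher listed value of Il6st. Stat3 shares its locus entry with Stat5a.

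The error behind the ratio of Il6st was large. Dividing the deposited log2 fold change by the deposited test statistic gives the error of the ratio, if that statistic is the ratio over its error, as is usual for this tool. For Il6st this was 1.73 on the log2 scale, and for the other 34 genes it ran from 0.37 (Tfcp2l1) to 0.82 (Eras). The median was 0.41 over the 35 genes and 0.60 over the 11236 tested genes for which it could be had, of which 7.12% had an error as large as that of Il6st or larger. Of 408 tested genes with a deposited ratio as high as that of Il6st, 149 were called. Which library or transcript gave the large error was not tested.

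Other genes of the LIF pathway, came from a list of 28. Of 26 tested, 4 were called higher, 1 was called lower and the other 21 passed no threshold, with a median log2 ratio of 0.27. The share called was 19.2%, beside 12.9% of all tested genes. The called genes that were higher included the cytokine gene itself and another receptor chain. Lif went from 1.22 to 4.30 FPKM (q = 0.0268 in the authors' deposited table). Cntfr, a receptor chain that can join IL6ST and LIFR, went from 2.19 to 8.37 FPKM (q = 0.0419 in the authors' deposited table). Ptpn6, a phosphatase that dampens cytokine signalling, went from 24.1 to 41.5 FPKM (q = 0.0262 in the authors' deposited table). Pim3, a serine and threonine kinase gene that STAT3 activates, fell from 87.4 to 55.1 FPKM (q = 0.0302 in the authors' deposited table). With normal p-values none of the 5 calls of the list was kept.

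Other receptors, kinases and STAT genes of the list were not called. The Janus kinase genes Jak1, Jak2 and Tyk2 stood at 6.36 and 10.3 FPKM, 0.744 and 1.34 FPKM, and 14.2 and 12.4 FPKM in control and knockout cells. Il6ra, the receptor of interleukin 6, stood at 4.48 and 1.87 FPKM and Stat5b at 3.60 and 6.39 FPKM, and the kinase gene Pim1 at 172 and 140 FPKM. Osmr, the receptor chain for oncostatin M, was listed at 0 in both groups and Stat5a was at 0.889 and 1.15 FPKM, and neither was tested. Myc (39.0 and 35.3 FPKM) and Gbx2 (22.3 and 24.2 FPKM), 2 targets of STAT3 picked after their values were seen, were near their control level. Junb (68.9 and 92.5 FPKM) and Socs1 (4.76 and 1.398 FPKM) were not called either. Over the 26 tested genes of the list, 7 were higher and 3 lower at an unadjusted Cuffdiff p under 0.05.

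**Figure D3:**
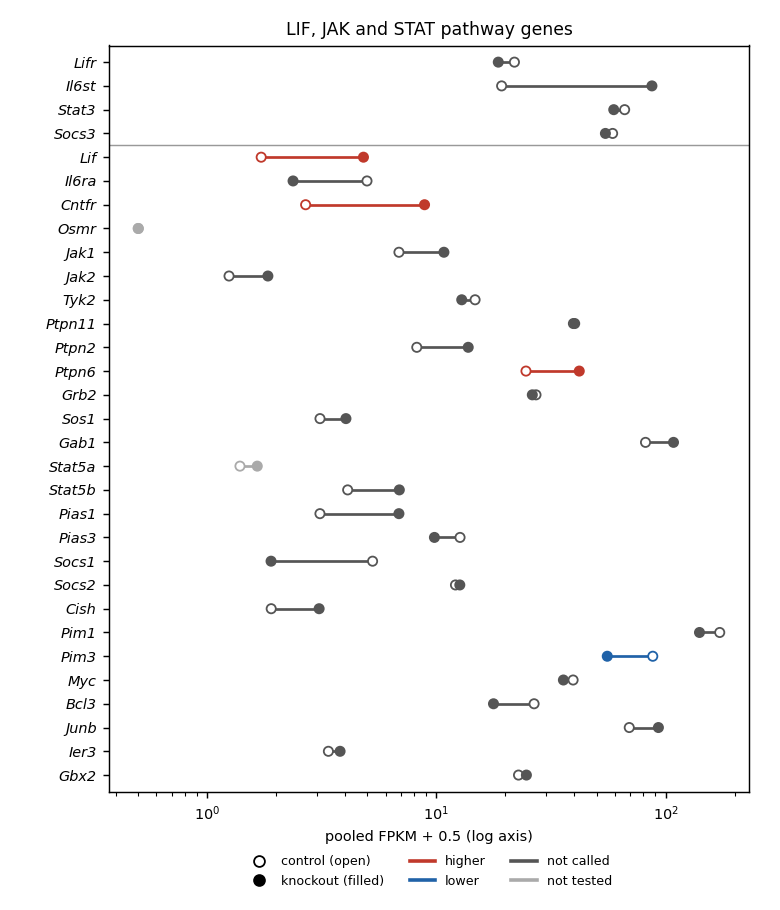
Pooled FPKM plus 0.5, on a log axis, of the 4 LIF pathway genes of the network (above the line) and 27 other genes of the pathway. Open points are control and filled points MTF2 knockout cells. The longest line belongs to Il6st, which was not called, and the 3 red lines and 1 blue line mark called genes.

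The Dppa genes, first named as developmental pluripotency-associated genes, held both the highest and the lowest levels of the network. Dppa5a, which encodes an RNA-binding protein, had 1481 FPKM in control cells and 1876 FPKM after the knockout. Dppa2 and Dppa4, whose proteins bind DNA as a pair and lie 16185 bases apart in the table, stood at 8.41 and 9.62 FPKM and at 20.2 and 28.5 FPKM. The 3 tested genes had log2 ratios of 0.34, 0.18 and 0.49 and none was called. Dppa3 (Stella), which protects DNA methylation in the egg and early embryo, was listed at 0 without the knockout and at 0.864 FPKM with it, and was not tested. Dppa3 and Dppa5a have near-identical copies in the mouse genome, so their values are uncertain.

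The other nuclear factors included 3 of the 4 genes called lower. Of the 6, 3 were called lower, none was called higher and 3 passed no threshold. Over all tested genes, 6.03% were called lower and 6.9% higher. Of the 6 ratios, 5 were below 0, with a median log2 ratio of -0.64. Tcea3, a relative of the elongation factor TFIIS (chromosome 4, 136247952 to 136274898), fell from 121 to 54.1 FPKM, a log2 ratio of -1.16 with q = 0.0012 in the authors' deposited table. Foxd3, a forkhead repressor needed in the epiblast (chromosome 4, 99656299 to 99658622), fell from 94.6 to 56.6 FPKM, a log2 ratio of -0.74 with q = 0.014 in the authors' deposited table. Utf1, which encodes a chromatin protein bound at developmental genes (chromosome 7, 139943789 to 139945112), fell from 352 to 215 FPKM, a log2 ratio of -0.71 with q = 0.0127 in the authors' deposited table. In knockout cells they stood at 44.5%, 59.9% and 61.0% of control. The calls of Foxd3 and Utf1 were lost at a q of 0.01.

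Trim28, the corepressor that silences retroviral elements through zinc finger proteins, stood at 563 and 380 FPKM and was not called (log2 ratio -0.56, q = 0.0877 in the authors' deposited table). The spalt family genes Sall4 (69.2 and 58.7 FPKM) and Sall1 (115 and 124 FPKM) were near their control level. Sall4 is required for the stem cell state and its product binds NANOG.

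Signalling and surface genes moved both ways. Of the 5, Spp1 was called higher and Eras lower, beside 6.9% and 6.03% of all tested genes. Spp1 (chromosome 5, 104435118 to 104441050) encodes osteopontin, a secreted ligand of integrins, and its 82.8 FPKM in control cells compared with 259 FPKM in knockout cells, a log2 ratio of 1.64 with q = 0.0012 in the authors' deposited table. Eras, a constitutively active Ras of embryonic stem cells that stimulates PI3 kinase (chromosome X, 7919822 to 7928607), fell from 32.0 to 10.5 FPKM, the lowest ratio of the network at -1.56, with q = 0.0112 in the authors' deposited table. Eras shares its locus entry with Pcsk1n, whose RefSeq span overlaps that entry. Pcsk1n was also called lower, from 12.6 to 3.65 FPKM (q = 0.0164 in the authors' deposited table), and whether the 2 genes share reads was not tested. The call of Eras was lost at a q of 0.01.

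The other genes of that group were not called. Tcl1, a coactivator of the kinase AKT, stood at 62.1 and 77.7 FPKM. The adhesion genes Pecam1 and Jam2 stood at 55.4 and 37.6 FPKM and at 20.2 and 29.5 FPKM, with log2 ratios of -0.55 and 0.54. Tcl1 lies among Tcl1b copies, so reads could be shared there too.

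Among metabolic, RNA-binding and other markers, 2 of 4 genes were called higher and 0 lower, beside 6.9% and 6.03% of all tested genes. Tdh, the mitochondrial threonine dehydrogenase on which mouse embryonic stem cells depend for one-carbon units (chromosome 14, 63492347 to 63509092), went from 73.1 to 253 FPKM. Its log2 ratio of 1.78 was the largest of the called genes, with q = 0.0012 in the authors' deposited table. L1td1, an RNA-binding protein derived from a LINE-1 element (chromosome 4, 98726748 to 98738480), went from 136 to 262 FPKM, a log2 ratio of 0.95 with q = 0.00303 in the authors' deposited table. Ooep, an egg protein gene, stood at 19.0 and 23.0 FPKM, and the POU5F1 target Fbxo15 at 31.3 and 36.9 FPKM. Fbxo15 shares its locus entry with Timm21.

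Some genes differed in the same direction as their chromosomal neighbours and others did not. The 36 genes lay on 18 chromosomes. For each, the median log2 ratio of other genes with 1 FPKM or more in either group and within 2 Mb was taken. Tdh lay among 22 such genes, of which 20 had ratios above 0, 13 were called higher and 0 lower, with a median of 1.38. Klf5 had 5 such neighbours with a median of 0.60, and 4 of 5 were above 0. The median over the 404 such genes of chromosome 14 other than the gene itself was 0.70 for both. Tdh was 0.40 and Klf5 0.17 above its neighbours on the log2 scale.

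Zfp42, the gene with the lowest ratio among the naive factors, lay among 5 neighbours on chromosome 8, of which all 5 were below 0 and 3 were called lower, with a median of -0.75. The median over the 681 other genes of chromosome 8 with 1 FPKM or more in either group was 0.0085. The neighbours of Spp1 had a median of 0.57 over 10 genes, of which 2 were called higher. Its own ratio was 1.07 above that median. Tcea3 lay 1.22 below 55 neighbours with a median of 0.06, Eras 1.77 below 34 neighbours with a median of 0.21, and Utf1 0.72 below 61 neighbours with a median of 0.01. Tfcp2l1 lay 1.10 above its 15 neighbours, and Il6st, which was not called, 2.23 above its 13 neighbours. L1td1 and Foxd3, called in opposite directions, lie 917819 bases apart on chromosome 4. The median over the 10 neighbours of L1td1 was 0.10, and so was that over the 16 of Foxd3. Without the genes on chromosomes 8 and 14, 3 genes were called higher in place of 5, 4 lower, and the median log2 ratio was -0.02. Chromosome copy number was not measured in these data, and its part in these values was not tested.

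**Figure D4:**
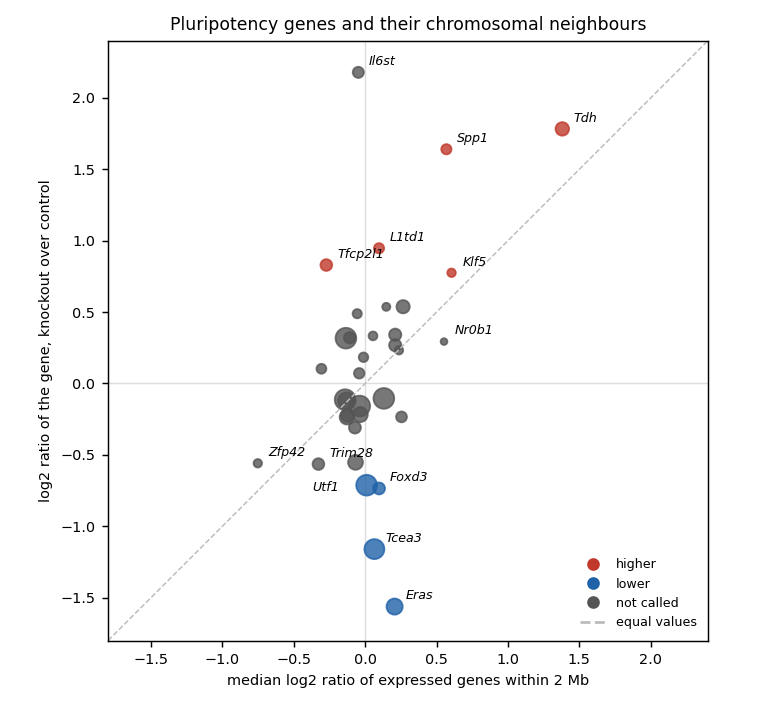
Log2 ratio of knockout over control for the 35 tested pluripotency genes against the median log2 ratio of expressed genes within 2 Mb. Points are larger where there are more neighbours (up to 60), and the dashed line marks equal values. Tdh, Klf5 and Zfp42 lie near the line. Il6st, Spp1, Tfcp2l1, L1td1, Tcea3, Eras, Foxd3 and Utf1 lie farther from it.

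The promoters of the called genes were looked at because the series concerns the binding of Polycomb-like proteins to CpG-rich DNA. RefSeq promoter windows on GRCm38.p6, from 250 bases before to 50 after the start site, were matched by symbol for 24 of the 36 genes. Where a gene had several, the window nearest the start of its locus entry was used. Those of the 3 matched genes called higher and the 4 called lower are shown, each read 5′ to 3′ on the strand of the gene, with CG dinucleotides in capitals. They lie at chr1:118627695-118627994 (plus strand, Tfcp2l1), chr4:98726504-98726803 (plus, L1td1), chr5:104434861-104435160 (plus, Spp1), chr4:136247707-136248006 (plus, Tcea3), chr4:99656049-99656348 (plus, Foxd3), chr7:139943606-139943905 (plus, Utf1) and chrX:7928558-7928857 (minus, Eras).
Tfcp2l1: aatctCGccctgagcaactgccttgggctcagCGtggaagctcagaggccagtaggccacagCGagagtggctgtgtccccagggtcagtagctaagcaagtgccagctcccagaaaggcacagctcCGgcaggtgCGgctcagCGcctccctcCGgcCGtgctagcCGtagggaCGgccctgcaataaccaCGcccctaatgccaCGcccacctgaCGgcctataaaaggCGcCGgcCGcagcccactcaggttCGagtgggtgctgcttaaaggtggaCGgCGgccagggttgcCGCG
L1td1: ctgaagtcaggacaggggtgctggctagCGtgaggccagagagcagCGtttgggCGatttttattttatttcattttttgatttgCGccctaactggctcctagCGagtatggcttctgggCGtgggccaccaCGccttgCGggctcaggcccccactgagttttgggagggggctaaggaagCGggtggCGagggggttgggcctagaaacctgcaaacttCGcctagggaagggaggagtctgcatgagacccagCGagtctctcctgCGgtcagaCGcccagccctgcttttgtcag
Spp1: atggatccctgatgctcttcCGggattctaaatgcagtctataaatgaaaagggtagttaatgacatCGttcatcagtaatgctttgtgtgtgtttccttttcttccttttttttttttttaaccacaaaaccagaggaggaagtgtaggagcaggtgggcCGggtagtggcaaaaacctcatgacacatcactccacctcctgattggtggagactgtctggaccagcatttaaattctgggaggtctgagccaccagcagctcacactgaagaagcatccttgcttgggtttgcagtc
Tcea3: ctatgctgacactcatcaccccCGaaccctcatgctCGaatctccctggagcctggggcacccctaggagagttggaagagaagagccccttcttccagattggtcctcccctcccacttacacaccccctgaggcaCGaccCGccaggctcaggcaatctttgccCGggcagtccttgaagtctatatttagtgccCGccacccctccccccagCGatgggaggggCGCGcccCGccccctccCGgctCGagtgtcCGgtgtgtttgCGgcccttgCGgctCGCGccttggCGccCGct
Foxd3: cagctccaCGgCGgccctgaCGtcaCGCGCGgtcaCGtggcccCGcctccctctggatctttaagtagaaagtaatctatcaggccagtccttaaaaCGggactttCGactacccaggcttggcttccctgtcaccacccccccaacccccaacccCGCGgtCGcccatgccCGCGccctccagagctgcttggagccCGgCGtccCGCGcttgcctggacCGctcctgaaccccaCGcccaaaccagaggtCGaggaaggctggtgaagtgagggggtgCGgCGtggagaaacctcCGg
Utf1: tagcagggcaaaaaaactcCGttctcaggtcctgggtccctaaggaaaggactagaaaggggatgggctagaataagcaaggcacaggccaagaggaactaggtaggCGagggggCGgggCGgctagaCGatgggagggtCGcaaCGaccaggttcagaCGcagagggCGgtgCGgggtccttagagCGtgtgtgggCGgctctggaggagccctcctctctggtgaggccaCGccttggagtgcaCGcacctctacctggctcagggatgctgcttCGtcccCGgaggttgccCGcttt
Eras: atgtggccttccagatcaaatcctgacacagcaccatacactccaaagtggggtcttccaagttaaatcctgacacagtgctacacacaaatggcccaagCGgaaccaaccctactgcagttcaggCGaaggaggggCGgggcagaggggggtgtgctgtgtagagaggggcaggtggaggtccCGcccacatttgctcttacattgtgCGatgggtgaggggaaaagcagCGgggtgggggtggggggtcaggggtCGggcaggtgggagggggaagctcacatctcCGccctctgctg

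Both CG-rich and CG-poor promoters were found among the called genes. Spp1 had 3 CG dinucleotides in its window and Tfcp2l1 had 21, and both were called higher. Eras had 8 and Foxd3 25, and both were called lower. Over the 24 matched genes the count ran from 2 (Nr5a2) to 53 (Lifr) with a median of 16, beside 22 over 8735 tested genes with 1 window each and 7 over all 32851 windows. Nanog had 4, Esrrb 7, and Pou5f1 and Zfp42 11 each. A window with at least 50% GC and a ratio of observed to expected CG of at least 0.6 was found for 13 of 24 genes (54.2%), beside 73.5% of the tested genes. Among all tested genes, 68.5% of those called higher, 79.0% of those called lower and 73.4% of those not called had such a window. No test was made of these shares.

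**Figure D5:**
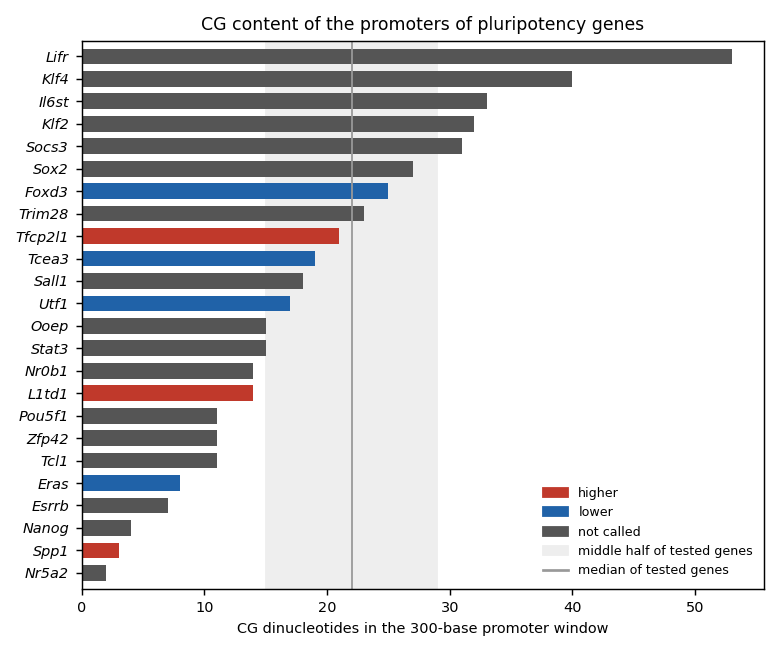
Number of CG dinucleotides in the promoter window of 24 pluripotency genes, as bars from 0. Red bars are genes called higher, blue bars genes called lower and dark grey bars genes not called in MTF2 knockout cells. The light band holds the middle 50% of 8735 tested genes and the line their median of 22. The red bars stand at 3, 14 and 21 and the blue bars at 8, 17, 19 and 25, and the 6 longest bars, from 27 for Sox2 to 53 for Lifr, are genes not called.

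Motifs of the network's own factors were searched on both strands in the same windows. TTCNNNGAA, bound by STAT factors, was found in 2 of the 24 windows (8.33%), those of Socs3 and Esrrb. It was found in 8.30% of all windows and 6.58% of those of tested genes, taken with 1 window each. CAAGGTCA, bound by ESRRB, was found in 1, that of Lifr, beside 1.56% of all windows and 0.996% of those of tested genes. The octamer ATGCAAAT, bound by POU factors, was found in 1, that of Zfp42, beside 1.74% and 1.31%. CCNCNCCC, a form of the Krüppel-like factor motif that overlaps CG-rich and other GC-rich DNA, was found in 22 of 24 (91.7%), beside 49.5% of all windows and 71.1% of those of tested genes. A match describes letters and not binding. The 4 rarer matches are shown as 30 bases on the strand of the gene with the motif, or its complement, in capitals, at chr11:117969501-117969530 (Socs3), chr12:86360929-86360958 (Esrrb), chr15:7129322-7129351 (Lifr) and chr8:43307177-43307206 (Zfp42). None of the 4 genes was called.
Socs3: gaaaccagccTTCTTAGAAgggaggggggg
Esrrb: aacggaaactTTCGTGGAAagcacttgagc
Lifr: cggTGACCTTGcaaggctggccgcgcgacc
Zfp42: tctgaagaggcATTTGCATaactgagcaag

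Other genes of the pluripotency network, from a list of 29, were mostly not called. Of 27 tested, 1 was called higher and 1 lower, which is 7.41% beside the 12.9% of all tested genes, with a median log2 ratio of -0.17. Tdgf1 (CRIPTO), the coreceptor of NODAL, went from 41.3 to 70.6 FPKM (q = 0.0159 in the authors' deposited table). Tcf7l1, a repressor that limits Nanog and Esrrb and so opposes self-renewal, fell from 59.3 to 29 FPKM, a log2 ratio of -1.02 with q = 0.0012 in the authors' deposited table. Fgf4 (61.4 and 57.5 FPKM), Dnmt3l (178 and 165 FPKM), Cdh1 (229 and 254 FPKM) and Lin28a (102 and 129 FPKM) were not called.

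Of genes that mark the later, primed epiblast, 10 of 13 were tested. The deposited Cuffdiff test called 3 lower (Dnmt3a, Sox4 and Crabp1) and 0 higher, which is 30% beside the 12.9% of all tested genes called in either direction. At an unadjusted p under 0.05 it gave 4 lower and 0 higher. Otx2, a factor of the exit from the naive state, stood at 8.01 and 5.48 FPKM and Pou3f1 at 6.08 and 6.66 FPKM. Fgf5, the usual primed marker, was at 0.117 and 1.72 FPKM and was not tested. The summed level of the list was 324 FPKM without and 127 FPKM with the knockout. Most of that fall lay in Crabp1 (106 and 30.4 FPKM), Dnmt3a (100 and 22.7 FPKM) and Sox4 (37.6 and 11.5 FPKM). Of the 10 tested primed genes, 3 had ratios above 0. For the 36 naive genes the sums were 7979 and 8267 FPKM. Within the naive genes, the summed level in knockout cells was 67.5% of control for the 6 other nuclear factors. For the 5 signalling and surface genes it was 164%, which rests on Spp1 alone (82.8 and 259 FPKM). Of those 5, 2 had ratios below 0. For the 4 metabolic, RNA-binding and other markers it was 222%, mostly from Tdh (73.1 and 253 FPKM) and L1td1 (136 and 262 FPKM).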

How the data were processed

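The deposited table gave RNA sequencing results for 3 control and 3 knockout libraries as pooled values. Polyadenylated RNA was selected on oligo-dT, per the labels' protocols. The FPKM values, 1 per gene and group, were made by the authors, per the file headers. Cuffdiff 2.2.1.3, TopHat2 2.1.0, Bowtie 1.0 and deepTools stand in the submitters' processing notes, beside mm9 and mm10 as builds, without their roles. The log2 fold change, the test statistic (a score), the p-value and the q-value were deposited by the authors and come from Cuffdiff, whose q equals a Benjamini-Hochberg adjustment over the 11362 genes with status OK. How libraries were scaled and whether strand was used was not given in any source used here.

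Depth per library is unknown, so no interval or leave-one-out could be made. Coordinates are the table's, with starts counted from 1. RefSeq's GRCm38.p6 annotation (mm10) shared 21120 gene symbols with the table, with the chromosome equal for 99.99%, and all 36 genes described overlapped their RefSeq span.

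Log2 ratios with a pseudocount of 0.5, neighbourhood medians and promoter counts were computed with Python 3.11.15, pandas 2.3.3 and SciPy 1.17.1. The adjustment and the medians were tested on simulated data. The genes and lists were chosen with earlier results of these data known. Named were all 36 genes, each called gene of the pathway lists, and the receptors, kinases and STAT genes of the LIF list, except 1 gene of that list that is counted but not reported here. Of the pathway lists, Myc, Gbx2, Junb, Socs1, Fgf4, Dnmt3l, Cdh1 and Lin28a were added after their values were seen, as were Otx2, Pou3f1 and Fgf5. Alternatives were a q of 0.01, a 2-fold minimum, normal p-values, adjustment over expressed genes, pseudocounts of 0.1 and 1, centring, windows of 1 and 5 Mb, and leaving out chromosomes 8 and 14 or shared locus entries.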

Additional observations from a re-analysis of the deposited data

How the results depend on the processing

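No paired analysis was possible because the table holds 1 pooled value per group, and no library could be left out for the same reason. The 5 higher calls fell to 2 with a 2-fold minimum, to 2 with normal p-values from the test statistic and to 3 without chromosomes 8 and 14. The 4 lower calls fell to 1 at a q of 0.01, to 2 with the 2-fold minimum and to 0 with normal p-values. Without genes that share a locus entry, which left out Eras, they fell to 3. The 5 calls of the LIF pathway list fell to 1, 3 and 0, and the 2 calls of the wider network list to 1, 1 and 0, at a q of 0.01, with the 2-fold minimum and with normal p-values. The losses at a q of 0.01 and with the 2-fold minimum follow from the stricter rules themselves. Without chromosomes 8 and 14, the called genes Tdh and Klf5 were left out. Normal p-values are another measure and not a stricter threshold: with them the adjusted value of Tdh went from 0.0012 to 0.000563. Why the deposited Cuffdiff p-values differ from them was not tested. Adjustment over genes with 1 FPKM or more in both groups kept every count. The median log2 ratio of the network changed sign to -0.0167 without chromosomes 8 and 14, and stayed between 0.10 and 0.14 under the other settings. The median of the neighbourhood medians, -0.02 with 2 Mb, was 0.0107 with 1 Mb. No ratio of a single gene changed sign under pseudocounts of 0.1 or 1 or centring. Without values per library, a difference within the spread of the 3 libraries could not be told from a change.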
